A study of Mus musculus with 12 samples.

Results

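The 9 genes described here mark the pluripotent cells of the early mouse embryo and were measured in 12 RNA-seq libraries of tumour cells grown with or without decitabine. They are Dppa2, Dppa3, Dppa4, Dppa5a, Pou5f1, Nanog, Sox2, Zfp42 and Tdgf1. They were chosen by name, and all were found in both deposited tables among 46517 genes. The cells were B16F10, a mouse melanoma line, and 4T1, a mouse mammary carcinoma line. Decitabine is a cytidine analogue that enters replicating DNA and traps DNA methyltransferases, so that methylation is lost as cells divide. The 4 groups of 3 libraries were B16F10 control, B16F10 with 0.1 µM decitabine, 4T1 control and 4T1 with 1 µM decitabine, with 48 h of treatment and removal of dead cells before RNA was taken. The dose differed together with the line, so an effect of the line and an effect of the dose cannot be told apart. The labels say neither whether controls received a solvent nor whether replicates came from separate cultures. The p-values therefore measure the spread between these libraries, which may be technical.

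In the embryo, Pou5f1, Sox2 and Nanog encode transcription factors that bind together at enhancers and hold epiblast and embryonic stem cells in the pluripotent state. Zfp42, also called Rex1, is a zinc finger gene used as a marker of that state, and Tdgf1 encodes Cripto, a membrane-anchored co-receptor for Nodal. The Dppa genes were named for their expression alongside Pou5f1. Dppa2 and Dppa4 are neighbouring genes whose SAP domain proteins act together and activate genes of the 2-cell embryo, Dppa3 (Stella) protects maternal methylation marks in the zygote, and Dppa5a encodes an RNA-binding protein with a KH domain. The promoters of several of these genes are methylated in somatic cells.

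With decitabine, Dppa4 and Dppa2 appeared in B16F10 from no counts at all in the controls. In 4T1, Dppa4 and Sox2 appeared from no counts, Dppa5a rose about 3-fold, and Dppa2, present in 2 of 3 controls, had a ratio of 4.20 between the summed groups. Pou5f1, Nanog, Zfp42, Tdgf1 and Dppa3 had at most 7.94 estimated counts in any library of either line, and none of them was tested with the default expression filter. Summed over the 9 genes and the 3 libraries of a group, the estimated counts went from 11.31 to 866.86 in B16F10 and from 29.17 to 209.96 in 4T1. Dppa2 and Dppa4 supplied 96.1% of the sum in treated B16F10 cells and 41.4% in treated 4T1 cells.

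The edgeR quasi-likelihood test (Benjamini-Hochberg adjusted p, threshold 0.05) tested 2 of the 9 genes in each line, and called both higher each time. The other 7 did not pass the filter on low counts. Without the first 4T1 control library Dppa2 and Sox2 passed it too in 4T1, and 4 genes were called higher. Of all tested genes 41.2% were called in B16F10 (21.4% higher) and 75.3% in 4T1 (39.2% higher). A gene with no control counts can pass the filter only through its treated libraries. All 147 tested B16F10 genes and all 283 tested 4T1 genes of that kind were called higher, so for Dppa4 in both lines, for Dppa2 in B16F10 and for every other gene here with no control counts in a line, the call and its p are no support beyond the levels. A gene with few control counts, such as Dppa5a in 4T1 or Tex19.1 in B16F10, also passed through its treated libraries. Its call is read the same way. Among genes of known length with no control counts in B16F10, 3513 of 26158 had counts with decitabine. Of these, 8 exceeded Dppa4 and 44 exceeded Dppa2 in mean level per length. In 4T1, 5046 of 23554 such genes had counts with decitabine, 273 of them above Dppa4 and 391 above Sox2 per length.

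**Figure D1:**
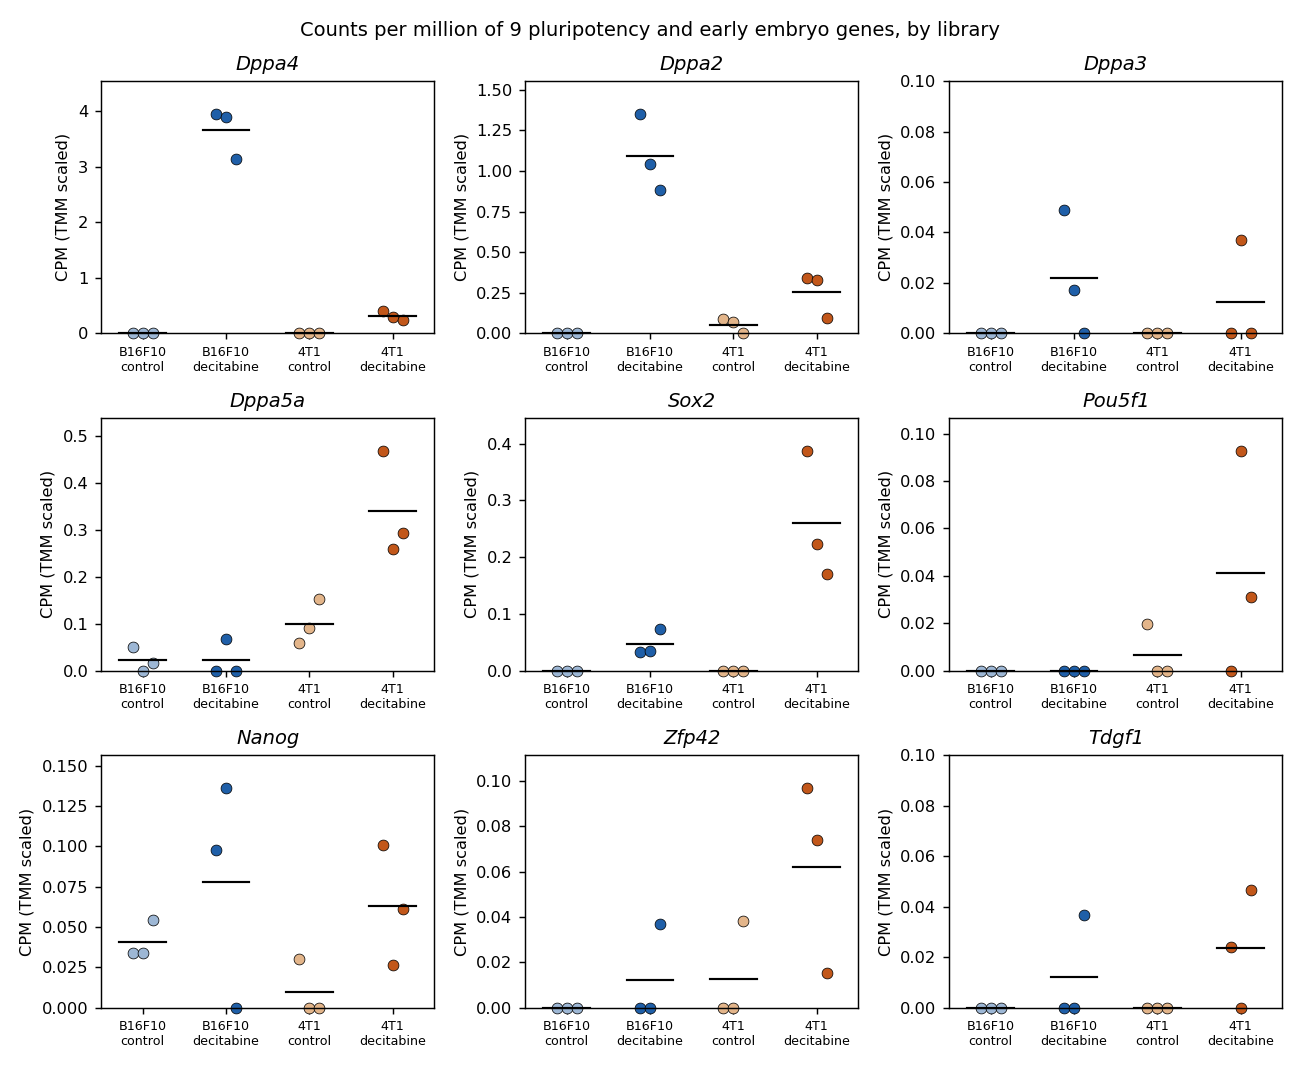
Level in CPM (counts scaled by library size and TMM factors) of each of the 9 genes in all 12 libraries; points are libraries and bars are group means, and each panel has its own linear axis. Dppa4 in treated B16F10 cells lies between 3.14 and 3.95 CPM, while every control library of both lines is at 0.

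Libraries held 48197936 to 76042600 estimated counts. At those depths 3 counts, the limit that a count of 0 allows, correspond to 0.0395 to 0.0622 CPM in a library before TMM scaling. Of 8 melanocyte markers all were above a mean of 1 CPM in both B16F10 groups, and of 9 epithelial markers 8 were in both 4T1 groups. In B16F10, 2 melanocyte markers were called higher and 4 lower, and their summed level went from between 12200 and 12530 CPM in controls to between 9693 and 9879 CPM. In 4T1, 3 epithelial markers were called higher and 3 lower. Markers of other cell types were called higher in 4T1 with decitabine. Of 10 blood and immune markers all 4 tested were, with a summed level of 0.874 to 1.37 CPM in controls and 16.01 to 16.7 CPM with decitabine, mostly of Csf1r, a myeloid receptor gene (13.1 ± 0.635 CPM). Ptprc, the pan-leukocyte gene, went from 0.0818 to 1.21 CPM there, and the macrophage gene Adgre1 was at 0 in every library of both lines. Of 9 fibroblast markers 3 of 4 tested were higher and 1 lower, with sums of 10.96 to 11.48 and 21.3 to 24.5 CPM, and of 5 endothelial markers 2 of 3 tested were higher, with sums of 11.2 to 16.5 and 22.8 to 46.5 CPM. In B16F10, 1 of 3 tested blood and immune markers and 3 of 5 tested fibroblast markers were higher, and no endothelial marker was tested. Summed blood and immune levels were 2.45 to 3.12 CPM in B16F10 controls and 3.77 to 4.84 CPM with decitabine, fibroblast levels 46.9 to 52.2 and 57.6 to 63.1 CPM, and endothelial levels 0.0511 to 0.175 and 0.245 to 0.634 CPM. The part of these markers in the levels of the 9 genes was not tested. Dnmt1, the maintenance methyltransferase, fell from 286 ± 10.0 to 181 ± 7.94 CPM (SD, n = 3) in B16F10 and from 423 ± 28.6 to 335 ± 11.1 CPM in 4T1, with adjusted p = 2.6e-08 and 0.00052. Its partner Uhrf1, which brings it to replicating DNA, fell from 231 to 162 CPM and from 308 to 215 CPM (adjusted p = 5.3e-07 and 3.1e-05). In bulk RNA, fewer cells with a transcript and less of it per cell cannot be told apart, and a level of a few counts can come from a small share of the cells. Genes of the immediate early and heat shock response were called higher in 14 of 21 tested cases in B16F10 and 18 of 22 in 4T1, and replication-dependent histone genes in 6 of 33 and 53 of 58; their part in the levels of the 9 genes was not tested.

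Dppa4 (ENSMUSG00000058550, chr16:48283733-48294237, plus strand, build mm10) had 0 counts in all 3 B16F10 control libraries and 242, 228 and 171 counts in the treated libraries. All 3 treated libraries stood far above the controls, at 3.67 ± 0.456 CPM (SD, n = 3). Against a limit of 3 counts over the 3 control libraries, Dppa4 was at least 217-fold higher (adjusted p = 9.6e-11). In 4T1 it had 0 counts in the controls and 17, 16 and 16 counts with decitabine, or 0.319 ± 0.0837 CPM, at least 16.2-fold higher (adjusted p = 7.1e-05). The 3 treated 4T1 libraries were close to each other and did not overlap the controls.

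Dppa2 (ENSMUSG00000072419, chr16:48303908-48319723, plus strand) starts 20 kb downstream of the start of Dppa4 on the same strand. It had 0 counts in the B16F10 controls and 82.68, 61 and 48.24 estimated counts with decitabine. The treated libraries had a mean of 1.09 ± 0.236 CPM, at least 64.9-fold above the control limit (adjusted p = 2.8e-07). In 4T1 Dppa2 was already present in 2 of the 3 controls, with 4.63, 4 and 0 estimated counts, and it had 14.2, 17.66 and 6.13 with decitabine. Whether the groups overlapped depended on the scale. In TMM-scaled CPM the lowest treated library, at 0.0951, was just above the highest control, at 0.0907, but in TPM, without TMM factors, that treated library was at 0.0940 and that control at 0.115. From summed counts rounded to 38 and 9, the ratio was 4.20, with a 95% counting interval of 1.99 to 9.87. Dppa2 was not tested in 4T1 by default. Of the 6 alternatives whose filter kept it, 4 called it, with adjusted p from 0.0028 to 0.066. It was not called when the second or the third 4T1 control library was left out (0.054 and 0.066).

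Per length of transcript the pair was unequal. In treated B16F10 cells Dppa4 reached 6.56 ± 0.874 TPM (counts divided by exon length and scaled to the same total in each library) and Dppa2 1.33 ± 0.336 TPM, a ratio of 4.31, 5.50 and 5.22 in the 3 libraries. In treated 4T1 cells the ratio of the TPM levels was 1.76, 1.33 and 3.84, below all 3 B16F10 libraries. Both genes have pseudogene copies. Of the 31-base words in their transcripts, 40.1% of those of Dppa4 and 33.8% of those of Dppa2 occur in other annotated genes, so their counts are uncertain. The closest copies of Dppa4 had few counts, with 0 for Gm14058 in every group and up to 2 for Gm5501 over a group of 3 libraries. Gm9788 and Gm8023, which share 30.7% and 22.5% of the words of Dppa2, had 11.91 and 2.17 estimated counts in treated B16F10 cells against 191.92 for Dppa2, but 9.47 and 10.55 in treated 4T1 cells against 37.99.

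Sox2 (ENSMUSG00000074637, chr3:34650405-34652461, plus strand), the HMG box partner of Pou5f1, had 0 counts in all 6 control libraries. Treated B16F10 libraries had 2, 2 and 4 counts and treated 4T1 libraries 16, 12 and 11. Both treated groups lay above their controls in every library, as was so for 18.9% of tested genes in B16F10 and 27.0% in 4T1. Of the treated groups of Sox2, that of 4T1 was the higher. It reached 0.260 ± 0.113 CPM in 4T1, at least 12.9-fold above the control limit, while the B16F10 counts gave at least 2.71-fold. Sox2 did not pass the default filter in either line. In 4T1 it was tested and called under 4 alternatives, with adjusted p from 1.3e-08 to 0.0013; with no control counts, these calls add nothing to its levels. It was also tested in B16F10 under the fit without a filter, where the adjusted p was 0.13. Just 0.89% of its words are shared with other genes. Sox2ot, a long non-coding transcript that overlaps Sox2 on the same strand, had 0 counts in B16F10 controls and 19, 7 and 5 with decitabine, and 0, 0 and 1 in 4T1 controls against 11, 5 and 8. Its treated libraries overlapped between the lines, at 0.174 ± 0.119 and 0.161 ± 0.0923 CPM, while those of Sox2 did not. Since both genes lie on the same strand, reads of the overlap cannot be assigned by strand.

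The promoters below show the range of CpG content, since decitabine acts on methylation at CpG sites. RefSeq promoters (GRCm38.p6, 250 bases before to 50 after a start) were found for Sox2, Nanog, Pou5f1, Zfp42 and Tdgf1. Dppa2, Dppa3, Dppa4 and Dppa5a were not in the table. The 250 bases upstream of the start are printed 5′ to 3′ on the plus strand with each CpG in capitals, at chr3:34649745-34649994 for Sox2, chr6:122707239-122707488 for Nanog and chr17:35505782-35506031 for Pou5f1, the first of the 2 starts listed for each of the last pair.
Sox2: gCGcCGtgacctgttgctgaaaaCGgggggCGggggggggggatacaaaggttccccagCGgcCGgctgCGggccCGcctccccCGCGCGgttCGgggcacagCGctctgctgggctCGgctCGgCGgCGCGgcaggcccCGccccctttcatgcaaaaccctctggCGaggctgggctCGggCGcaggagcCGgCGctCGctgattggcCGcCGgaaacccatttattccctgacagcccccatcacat
Nanog: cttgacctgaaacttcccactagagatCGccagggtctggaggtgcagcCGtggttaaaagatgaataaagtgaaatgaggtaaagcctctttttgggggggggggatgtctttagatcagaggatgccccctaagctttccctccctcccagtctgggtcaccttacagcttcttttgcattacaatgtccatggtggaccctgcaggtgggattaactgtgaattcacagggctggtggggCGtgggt
Pou5f1: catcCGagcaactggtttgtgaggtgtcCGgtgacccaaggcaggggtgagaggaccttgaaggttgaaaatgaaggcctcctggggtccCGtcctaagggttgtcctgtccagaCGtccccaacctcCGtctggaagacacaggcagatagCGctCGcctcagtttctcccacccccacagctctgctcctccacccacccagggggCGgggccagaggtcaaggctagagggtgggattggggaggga
The Sox2 window held 27 CpG in 300 bases, an observed to expected ratio of 0.819, which is above 80.7% of 32841 promoters. Nanog held 4 CpG (ratio 0.192), Pou5f1 11 (0.374), Zfp42 11 (0.441) and Tdgf1 7 (0.545), against a median of 7 CpG and a ratio of 0.384 over all promoters. Neither the E2F6 motif GCGGGAA (in 4.6% of all promoters) nor the E-box CACGTG (in 7.15%), searched on both strands, occurred in these windows. Methylation was not measured in the files used here.

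**Figure D2:**
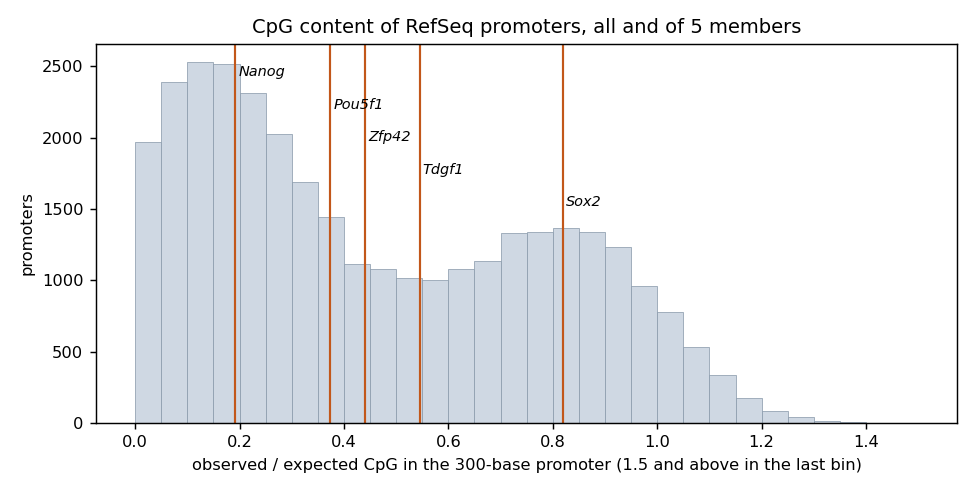
Observed to expected CpG ratio of 32841 RefSeq promoters of 300 bases as a histogram, with vertical lines at the first listed start of 5 of the genes. Sox2 lies at 0.819 in the CpG-rich mode and Nanog at 0.192 in the CpG-poor mode.

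Dppa5a (ENSMUSG00000060461, chr9:78367052-78368177, minus strand) was the gene of the 9 with the highest level per length in 4T1. Control libraries had 3, 5 and 8 counts and treated libraries 19.39, 14.03 and 19. The lowest treated library was above the highest control library. Its mean went from 0.101 ± 0.0477 to 0.341 ± 0.112 CPM, which is 1.74 ± 0.42 (SE) on the log2 scale, adjusted p = 0.0031. In B16F10 it had 3, 0 and 1 counts in controls and 0, 4 and 0 with decitabine. The B16F10 groups overlapped, with a ratio of 1.01 and a counting interval of 0.189 to 5.45. Of its words 57.2% are shared with other genes, among them 22.8% with Pigp, an expressed gene of the GPI anchor pathway, so that its low counts are uncertain. Pigp itself had 1029 estimated counts in 4T1 controls and 861.07 with decitabine (adjusted p = 0.057).

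Pou5f1 (ENSMUSG00000024406, chr17:35506018-35510772, plus strand) had 0 counts in all 6 B16F10 libraries. In 4T1 it had 1, 0 and 0 counts in controls and 0, 5 and 2 with decitabine, and the groups overlapped. The ratio was 6.96 with a counting interval of 0.894 to 314. Nanog (ENSMUSG00000012396, chr6:122707489-122714633, plus strand) had 2.04, 1.79 and 3.48 estimated counts in B16F10 controls and 6, 7.94 and 0 with decitabine. In 4T1 it had 1.54, 0 and 0 in controls and 4.17, 1.43 and 3.95 with decitabine. Treated and control libraries overlapped in both lines, with ratios of 2.03 (0.767 to 5.94) and 4.97 (1.06 to 46.7). These ratios use summed counts rounded to 14 and 7 in B16F10 and to 10 and 2 in 4T1. Of the words of Nanog, 10.7% occur elsewhere, spread over 1070 other genes.

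Zfp42 (ENSMUSG00000051176, chr8:43295063-43306980, minus strand) had counts in 1 of the 6 B16F10 libraries, a treated library with 2. In 4T1 it had 0, 0 and 2 in controls and 4, 4 and 1 with decitabine, a ratio of 4.47 with an interval of 0.926 to 42.6. Tdgf1 (ENSMUSG00000032494, chr9:110939603-110946158, minus strand) had 0 counts in all 6 controls, 0, 0 and 2 with decitabine in B16F10 and 1, 0 and 3 in 4T1. Dppa3 (ENSMUSG00000046323, chr6:122626410-122630272, plus strand) likewise had 0 in all controls, with 3, 1 and 0 in treated B16F10 and 0, 2 and 0 in treated 4T1 libraries. For each of these 3 genes the treated and control libraries overlapped in both lines. A difference was not detectable at this depth, and none of the 5 rarely counted genes passed the threshold between treated and control cells when the filter was dropped, with adjusted p of 0.12 to 0.29 in 4T1 and 0.28 to 0.63 in B16F10 for those with counts.

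In treated B16F10 cells the order of levels per length was Dppa4, Dppa2, Dppa5a, Nanog, Dppa3, Sox2, Zfp42, Tdgf1 and Pou5f1. The first and the second each lay above the next gene in all libraries, and from Dppa5a (0.104 TPM) to Pou5f1 (0 TPM) each gene overlapped its neighbour. Treated 4T1 cells had another order, led by Dppa5a at 1.36 ± 0.455 TPM, then Dppa4 at 0.472 ± 0.129, Sox2 at 0.311 ± 0.138 and Dppa2 at 0.258 ± 0.142 TPM. Dppa5a did not overlap Dppa4, and every later gene overlapped the next, down to Tdgf1 at 0.0219 TPM. Dppa5a also led the 4T1 controls, at 0.504 ± 0.243 TPM against 0.0686 ± 0.0607 for Dppa2. The B16F10 controls held Dppa5a (0.108 TPM) and Nanog (0.0571 TPM) alone, which overlapped.

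**Figure D3:**
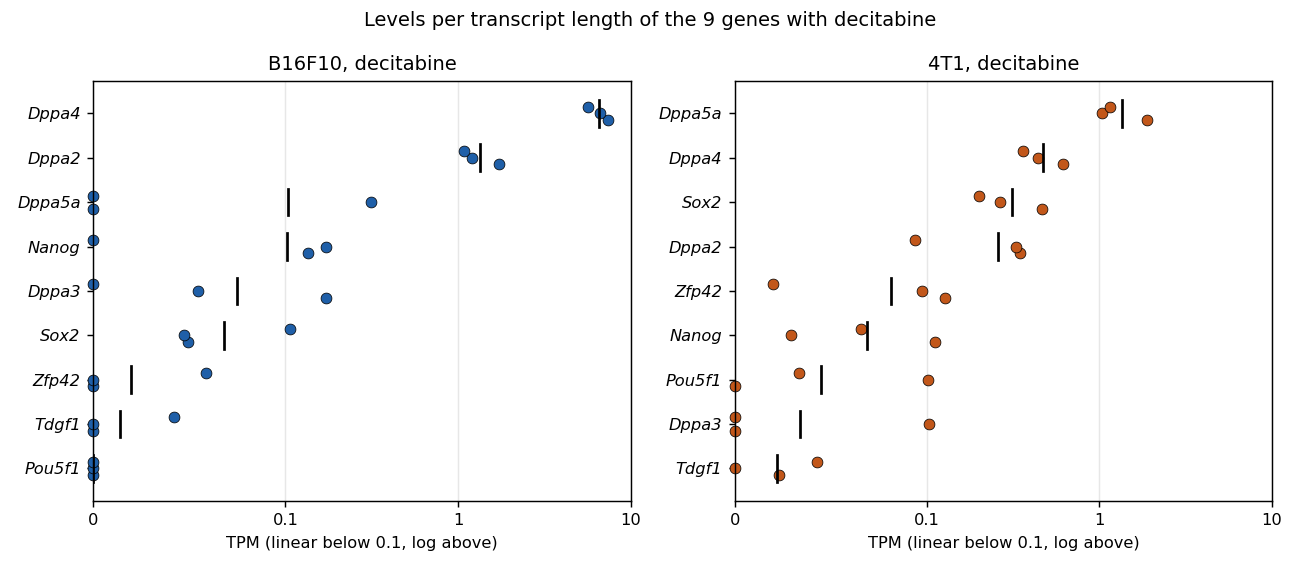
Level per transcript length (TPM; linear below 0.1 and logarithmic above) of the 9 genes in the 3 treated libraries of each line, ordered by mean; points are libraries and bars are means. Dppa4 leads in B16F10 at 6.56 TPM and Dppa5a in 4T1 at 1.36 TPM.

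The lines were then compared in a single fit of all 12 libraries, in which 3 of the 9 genes were tested. Between the treated lines 83.7% of all tested genes were called, 40.1% higher and 43.6% lower in B16F10. Dppa4 was 12.0-fold higher in treated B16F10 than in treated 4T1 cells (counting interval 8.98 to 16.4; log2 difference 3.55 ± 0.30, SE, adjusted p = 4.0e-08). Dppa2 was 4.64-fold higher (3.26 to 6.76, log2 difference 2.14 ± 0.53, adjusted p = 0.0014). A fit with the replicate number as a block set single replicates of the lines against each other, so it is no check here. Dppa5a was lower in B16F10, at a ratio of 0.0706 (0.0185 to 0.192; log2 difference -3.73 ± 0.83, adjusted p = 0.00045). Dppa2 entered this fit through its treated B16F10 libraries and Dppa5a through its treated 4T1 libraries, so their p are no support beyond the levels. Sox2, not tested by default, had a ratio of 0.188 (0.0760 to 0.409). The 12 alternatives that tested it all called it lower in B16F10, with adjusted p from 0.0041 to 0.020. These share nearly all their libraries. Where a filter applied, Sox2 passed it through the treated 4T1 libraries, so the calls add nothing to its levels.

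Between the control lines 77.9% of tested genes were called, 37.9% higher and 40% lower in B16F10. Dppa2 was called lower in B16F10 (adjusted p = 0.014), resting on 8.63 estimated counts in 4T1 and none in B16F10, at least 3.33-fold. The control groups overlapped, since the third 4T1 control also had no counts. Dppa2 entered the fit through treated B16F10 libraries that are not part of this contrast. Dppa5a had a ratio of 0.225 (0.0547 to 0.697) and missed the threshold at adjusted p = 0.059. Leaving out the first B16F10 control or the second treated B16F10 library brought it past, at 0.028 and 0.033.

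The responses themselves were compared as a contrast in the same fit, which called 49.8% of tested genes, 28.9% with the higher response in B16F10 and 20.9% in 4T1. The fitted response of Dppa2 was larger in B16F10 than in 4T1 (adjusted p = 0.0024). Dppa2 did not pass the filter in 4T1 alone and entered this fit through its treated B16F10 libraries. This p is therefore no support beyond the levels. The fitted log2 difference of 6.85 ± 1.64 rests on the absence of Dppa2 counts in B16F10 controls and is not a bound. For Dppa4, absent from both controls, a difference in response could not be estimated by edgeR (adjusted p = 1). Dppa5a had a log2 difference of -1.68 ± 1.49, adjusted p = 0.38. Leaving out the second treated B16F10 library, the one with all 4 of its treated B16F10 counts, moved that to -5.17 with adjusted p = 0.041.

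Genes with any base within 100 kb of a member were examined next. Just outside this window Morc1, a germline ATPase gene that represses transposons, lies 112 kb beyond the end of Dppa2 on the same strand. It had 1, 0 and 0 counts in B16F10 controls and 35, 38 and 31 with decitabine, a ratio of 105 with an interval of 18.5 to 4208 (adjusted p = 4.8e-06). In 4T1 it had 0 in controls and 19, 24 and 21 with decitabine, at least 21.2-fold higher. In each line Morc1 passed the filter only through its treated libraries, so its p there is no support beyond the levels. Morc1 reached 0.597 ± 0.0465 CPM in treated B16F10 and 0.410 ± 0.0733 CPM in treated 4T1 cells, a difference between the treated lines that missed the threshold (log2 difference 0.55 ± 0.40, SE, adjusted p = 0.21).

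Near Dppa5a, Ddx43, a helicase gene expressed in testis, went from 0 to 167.7 estimated counts in 4T1, at least 55.7-fold higher, and had no counts in B16F10. Cgas, the cytosolic DNA sensor, rose from 26.7 ± 1.16 to 47.6 ± 2.43 CPM in 4T1 (adjusted p = 1.6e-07) and Mto1, a mitochondrial tRNA modification gene, fell from 21.8 to 14.5 CPM. In B16F10, Gsta2, a glutathione transferase gene that shares 60.7% of its words with other genes, fell from 4.55 to 2.96 CPM (adjusted p = 0.011). Gm10639, a predicted protein-coding gene with 62.4% of its words shared, moved in opposite directions, from 2.13 ± 0.566 to 0.915 ± 0.243 CPM in B16F10 (adjusted p = 0.0016) and from 0.0498 ± 0.0571 to 0.419 ± 0.137 CPM in 4T1 (adjusted p = 0.0012), with a log2 difference between the responses of -4.20 ± 0.70 (SE, adjusted p = 6.7e-05). With most of their words shared, the counts of Gsta2 and Gm10639 are uncertain. In 4T1 alone, Gm10639 had 7.94 control counts and passed the filter only through its treated libraries. Its p in 4T1 is therefore no support beyond the levels. Ooep, an oocyte KH domain gene related to Dppa5a, had 1 count over all 12 libraries.

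Between Dppa3 and Nanog and around them, Gdf3, a Nodal-related ligand gene, had 0 counts in every library. Slc2a3, which encodes a glucose transporter, fell from 16.9 to 13.9 CPM in B16F10 (adjusted p = 0.031) and rose from 0.434 ± 0.0696 to 2.46 ± 0.443 CPM in 4T1 (adjusted p = 9.1e-07). Apobec1, a cytidine deaminase gene, was higher in both, at 1.98 to 2.91 CPM and 2.07 to 2.93 CPM (adjusted p = 0.034 and 0.011, the latter 0.18 when scaled by library size). Around Pou5f1, the MHC class I genes H2-Q6, H2-Q7 and H2-Q10 rose in 4T1 by 1.79, 1.90 and 1.28 on the log2 scale; between 30.3% and 51.8% of their words are shared with other genes, so these counts are uncertain. Tcf19 and Cchcr1, which start 10.8 and 11.1 kb from Pou5f1, fell in B16F10 by 0.90 and 0.37 on the log2 scale, and Cdsn, a gene of the skin barrier, rose in both lines by 0.68 and 1.00. Around Tdgf1, the serine protease genes Prss50 and Prss46 rose in 4T1 from 4 to 87 and from 42 to 445 counts (adjusted p = 1.7e-05 and 2.5e-07), and Tmie and Als2cl fell by 2.12 and 1.11. With 4 control counts, Prss50 passed the filter only through its treated libraries, so its p is no support beyond the levels. No neighbour of Sox2 or Zfp42 was tested in either line.

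**Figure D4:**
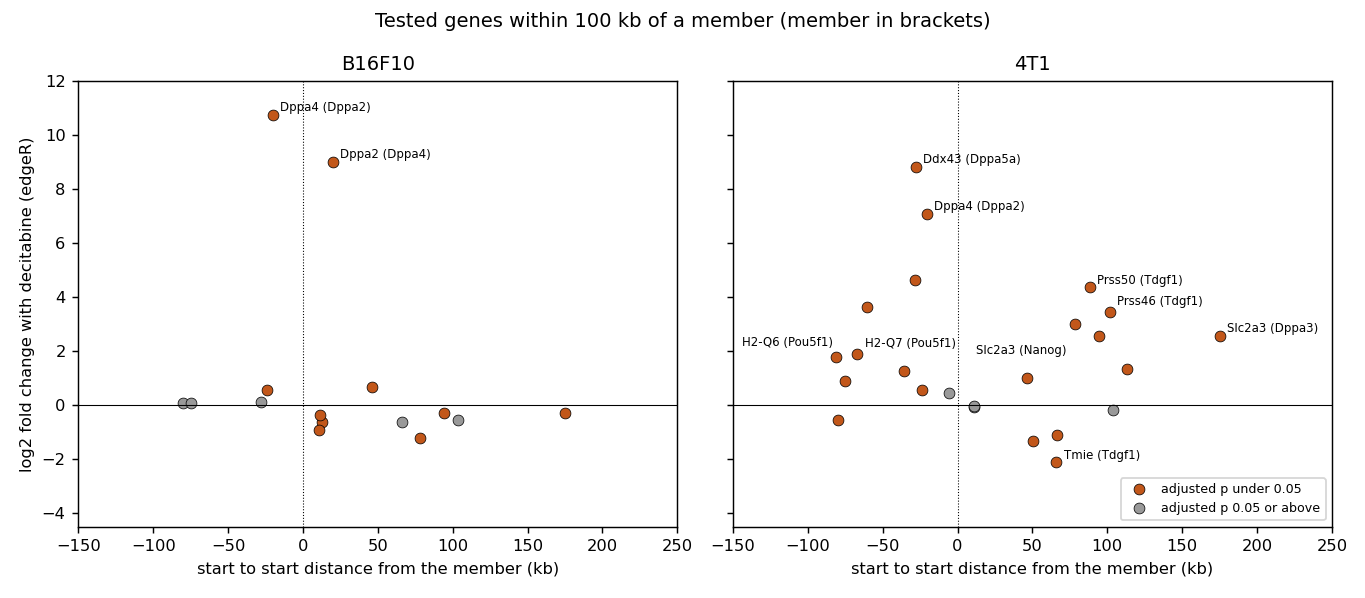
edgeR log2 fold change with decitabine of each tested gene within 100 kb of a member, against the distance between the 2 starts in kb; orange marks adjusted p under 0.05 and grey the rest, and a gene near 2 members is drawn for each. The values of Dppa4, Dppa2 and Ddx43 are fitted against 0 control counts and are not bounds.

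Wider lists set the 9 genes among related ones. Counts of called genes are to be read against 21.4% higher and 19.8% lower in B16F10 and 39.2% and 36.1% in 4T1 over all tested genes, and, for genes whose controls averaged below 0.5 CPM, against 38.9% and 77.5% higher. List medians stand beside 0.003 and 0.027 on the log2 scale for all tested genes. Of 33 genes of the naive and core pluripotency network, 14 were tested in B16F10, of which 3 rose and 2 fell (median log2 fold change -0.06). In 4T1, 17 were tested, and 9 rose and 5 fell (median 0.20, but -0.10 when scaled by library size alone, which moved the median of all tested genes to -0.27). Klf4, a reprogramming factor also active in epithelia, rose in 4T1 from 10.1 ± 0.179 to 29.8 ± 2.17 CPM (adjusted p = 8.7e-09), and Tfcp2l1, a transcription factor of naive stem cells, from 7.17 to 14.2 CPM. Nacc1 fell in 4T1 from 269 to 145 CPM. Rif1, a replication timing factor, fell in both lines, from 123 to 87.1 CPM in B16F10 and from 179 to 121 CPM in 4T1. In B16F10, Zfp281 and Zfp57, which maintains imprints, rose by 0.34 and 0.45 on the log2 scale and Thap11 fell by 0.22. In 4T1 all 3 were called the other way, Zfp281 and Zfp57 with log2 fold changes of -0.25 and -0.46 and Thap11 with 0.19, which was -0.11 and not called when scaled by library size. Without the first control, the first treated or the second treated B16F10 library, 1 gene of this list fell in place of 2.

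Some genes of the cleavage-stage embryo are downstream of Dux and of Dppa2 and Dppa4 in mouse embryonic stem cells. Of 29 on the list, 8 were tested in B16F10 and 7 rose (13 with no filter or in the fit of all 12 libraries); in 4T1, 12 were tested and 12 rose. Of those tested, 2 in B16F10 and 1 in 4T1 had no control counts and passed the filter through the treated libraries. Of the rest in B16F10, Usp17le and Zscan4d had 2 control counts each, Zscan4f 6, Duxf3 8.96 and Usp17la 16. These were also too few to pass without the treated libraries. In 4T1 the same held for Zscan4c (6.97 control counts), Zscan4b (12.85), Zscan4f (15.04) and Zfp352 (17). It also held there for Pramef25 (17.58), Usp17le (18.94) and Gm8300 (22.93). For such genes the calls and their part in the list medians are no support beyond the levels. The median log2 fold change was 5.07 in B16F10, or 4.99 with the genes absent from controls at their bound, and 2.72 in 4T1. Zscan4c and Zscan4b went from 0 to 97.77 and 97.71 estimated counts in B16F10, each at least 33.1-fold, and Zscan4c from 6.97 to 130.4 in 4T1. They share 91.5% and 95.2% of their words with other genes, so single members of the family are uncertain. Pramef8 rose in 4T1 from 15.2 to 36.3 CPM and Usp17la from 0.874 to 5.44 CPM. Duxf3, the Dux gene, had 8.96 estimated counts in B16F10 controls and 34.15 with decitabine (adjusted p = 0.099), and 1 and 43.17 in 4T1, where it was not tested.

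Of 17 primordial germ cell genes, 9 were tested in B16F10 and all 9 rose, and 12 of 13 rose in 4T1 (median log2 fold changes 5.46 and 4.68, unchanged with absent genes at their bounds). Of those tested, 2 in each line had no control counts, and Tex19.1 in B16F10 and Dazl and Ddx4 in 4T1 had 1. They passed the filter only through the treated libraries, so their calls are no support beyond the levels. Tex19.1, a germline gene that restrains transposons, went from 1 to 1698 counts in B16F10, a ratio of 1723 with an interval of 309 to 68090, and Ifitm3, also an interferon-induced gene, from 22.3 to 69.7 CPM. Dazl and Ddx4, RNA-binding and helicase genes of germ cells, went from 1 count each to 19709 and 7978 counts in 4T1, or 124 ± 8.06 and 49.9 ± 0.268 CPM. Primed and first lineage genes had 3 tested in B16F10 with 1 higher (Pdgfra), and 6 in 4T1 with 5 higher and 1 lower. Eomes, a T-box gene of trophoblast and mesendoderm, rose in 4T1 from 10.7 ± 0.275 to 29.1 ± 0.161 CPM and Pou3f1, a POU gene of the primed epiblast, from 4 to 228 counts, while Pdgfra fell from 10.2 to 5.14 CPM. With 4 control counts, Pou3f1 passed the filter only through its treated libraries, so its call is no support beyond the levels.

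Nodal pathway genes, in which Tdgf1 acts, gave 3 higher and 1 lower of 11 tested in B16F10 and 7 higher and 6 lower of 16 in 4T1. The signal transducer Smad3 rose from 52.8 to 60.4 CPM in B16F10 and fell from 106 to 69.5 CPM in 4T1. The activin subunit gene Inhbb rose from 2.20 to 6.68 CPM and Drap1 from 81.8 to 109 CPM in 4T1, and Furin, a protease that cleaves the Nodal precursor, fell from 134 to 101 CPM. The receptor gene Acvr1b fell in B16F10 by 0.24 and the inhibitor Smad7 rose by 0.47 on the log2 scale. In B16F10, 1 gene of the list rose without the second control or the second treated library, 2 fell without the first treated library and 0 without the second. Of 10 subcortical maternal and KH domain genes 2 were tested in each line. Neither was called in B16F10, and Zbed3 and Tle6 fell in 4T1 (1 of them without the third treated library).

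The PRC1.6 complex with E2F6 and its partners keeps germline genes silent, and all 15 of its listed genes were tested. In B16F10, Max and Yaf2 rose (Yaf2 not called when scaled by library size) and Cbx1, Wdr5 and Cbx3 fell, each by less than 0.3 on the log2 scale. Of these B16F10 calls, 1 higher was left without the first or the third control library, 1 lower without the second or the third control library, and 1 of each without the second or the third treated library. In 4T1, Ring1 and Rybp rose (Ring1 alone when scaled by library size), and Cbx1, Kdm5c, Setdb1, E2f6, Rnf2, L3mbtl2, Cbx3, Pcgf6, Wdr5 and Max fell (median log2 fold change -0.23). Of these, Kdm5c had the largest fall in 4T1, from 111 ± 4.24 to 68.0 ± 5.41 CPM, and E2f6 fell from 25.2 to 19.3 CPM. Among 26 entries for paralogues of the 9 genes, Pou6f1 and Pou2f1 fell in both lines. They went from 26.1 to 19.7 and from 36.8 to 30.02 CPM in B16F10 and from 5.11 to 2.07 and from 68.4 to 34.3 CPM in 4T1. A second entry of Pou6f1 went the other way in B16F10 and was not called (log2 fold change 1.77, edgeR adjusted p = 0.12). In B16F10, 1 fell without the first or the second control library or without the second or the third treated library, and 1 rose without the second control or the first treated library. Of the 8 tested in 4T1, 5 rose, among them Pou4f1 from 5.84 to 16.9 CPM. Another of the 5 was Pou3f1, which passed the filter only through its treated libraries.

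**Figure D5:**
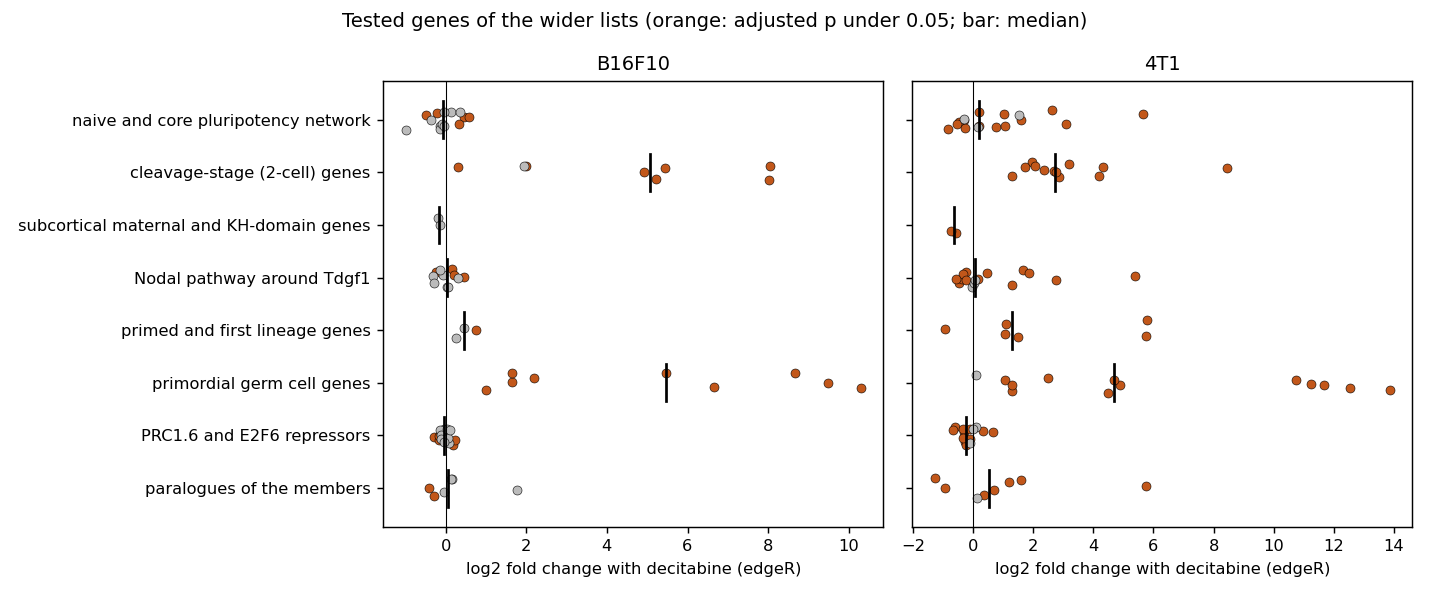
edgeR log2 fold change with decitabine of each tested gene of the 8 wider lists in each line; orange marks adjusted p under 0.05, grey the rest, and the bar is the list median. Primordial germ cell and cleavage-stage genes have medians of 5.46 and 5.07 in B16F10 and 4.68 and 2.72 in 4T1, and the naive and core network -0.06 and 0.20. Several primordial germ cell and cleavage-stage genes passed the filter only through their treated libraries.

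Genes whose levels across the 12 libraries were most like those of a tested member were ranked by Pearson r of log2(CPM + 0.1) among 13978 genes. The r values describe 12 libraries in 4 groups, and libraries of a group share their line and treatment. Dppa4 was closest to Rhox2f (r = 0.992), Rhox2h (0.991) and Sytl4 (0.989). Rhox2f had 2.59 CPM in treated B16F10 and 0.453 CPM in treated 4T1 cells, and none in controls; the Rhox2 copies share 73.5% and 68.2% of their words with other genes. Dppa2 was closest to Tph2 (0.974), Pappa (0.965) and Lrrn3 (0.964). Dppa5a was closest to Cplx1 (0.960), Ribc1 (0.958) and Slmapos2 (0.958), of which Slmapos2 went from 1.89 to 6.90 CPM in 4T1 and was at 0.901 and 1.08 CPM in B16F10. With a pseudocount of 1 in place of 0.1, Sytl4 stayed among the 3 nearest to Dppa4 and Tph2 among those of Dppa2, and none of the 3 nearest to Dppa5a stayed.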

How the data were processed

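RNA-seq libraries of the 4 groups were grouped by the labels. The deposited tables, 1 per line, hold estimated counts per gene, unscaled between libraries; RSEM, edgeR and the build mm10 are named in the submitters' processing notes without versions or roles. Of the aligner, annotation, strand setting and use of molecular indices nothing is stated (not given in the sources used here). Identifiers of 46005 of 46517 genes matched GENCODE M21, and 27 symbols altered by a spreadsheet were restored. Between 9.54% and 15.5% of entries in a library were not whole. Counts were rounded for the tests, and sums over a group were rounded before ratios, bounds and intervals were taken. No pair of replicates agreed within sampling noise (smallest chi-square per degree of freedom 6.14).

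Within a line, the 6 libraries were fitted in R 4.3.3 by the robust quasi-likelihood method of edgeR 4.0.16 (default filter, TMM), adjusted over all tested genes by Benjamini-Hochberg, threshold 0.05; contrasts between lines used 1 fit of all 12 libraries. A standard error is the log2 fold change divided by the root of the F statistic. CPM uses the TMM factors of the 12-library fit, and TPM the union exon length per gene. A group with 0 counts was set to 3 counts over its 3 libraries for a lower bound; counting intervals are exact conditional binomial at 95%. Intervals and bounds cover counting error only. Shared sequence was measured by 31-base words, as the percentage of those in a gene that other genes' transcripts also hold. The scripts were tested on simulated data, with changes set only in well-counted genes. That is no check of the tests of genes with few counts. Alternatives were DESeq2 1.42.0, limma-voom (limma 3.58.1), other scaling, other filters, a replicate block, 1 fit for both lines and each library left out. Figures used matplotlib 3.10.9 in Python 3.11.15.

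The 9 genes, the wider lists and the rules were chosen with earlier results of these data known. Named are all 9 genes; up to 2 higher and 2 lower genes per list and line with the smallest adjusted p; all called PRC1.6 genes; called neighbours within 100 kb, other than those with Gm numbers, Rik or clone names, and Morc1; the 3 most similar genes of each tested member; Dnmt1 and Uhrf1. Gm14058, Gm5501, Gm9788, Gm8023, Gm10639, Pigp, Sox2ot, Gdf3, Ooep and Duxf3, and Zscan4c in 4T1, were named outside this rule after their values were seen. So were the other cleavage-stage genes named for their low control counts.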

Additional observations from a re-analysis of the deposited data

Results flagged for a closer look

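The fitted response of Dppa2 was larger in B16F10 than in 4T1, with a log2 difference of 6.85 (B16F10 minus 4T1, SE 1.64, edgeR adjusted p = 0.0024). Dppa2 entered this fit through its treated B16F10 libraries, so the p is no support beyond the levels. All 3 treated B16F10 libraries were above all 3 controls; in 4T1 this held in TMM-scaled CPM but not in TPM, where the lowest treated library was at 0.0940 and the highest control at 0.115. Under 19 alternatives the difference ranged from 4.69 to 7.40 with adjusted p from 0.00012 to 0.012. Its size depends on the B16F10 controls, which had no counts of Dppa2.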

How the results depend on the processing

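No fold change of a tested member changed direction under the alternatives run. Of the alternative log2 fold changes of tested members, 221 kept their side of the threshold, 5 passed it and 1 lost it. The 1 that lost it was Dppa2 between the treated lines with the replicate block. The number of members called higher in 4T1 (2 by default) was 4 with no filter and 2 to 4 when a library was left out. Of the difference between responses, limma-voom called 2 higher (Dppa2 and Dppa4, the latter at adjusted p = 0.00069), and 0 to 1 was called lower when a library was left out. Between controls, limma-voom called 2 lower, and leaving out a library gave 1 to 2. Between the treated lines, 3 were called lower with no filter (Dppa5a, Sox2 and Pou5f1), 2 with at least 10 counts in at least 3 libraries, and 1 to 2 when a library was left out. Sox2 enters through the filter in these cases, except in the fit without one. In that fit Pou5f1 had an edgeR adjusted p of 0.049. It rested on 7 counts in treated 4T1 and 0 in treated B16F10 cells, and the groups overlapped. With the replicate number as a block, the control and treated contrasts between lines set single replicates against each other, not the group means. Between the treated lines Dppa2 was then at log2 1.21 and was not called, which is no test of the group difference. No other count of called members moved. Same-numbered libraries did not deviate together (r = -0.254, -0.222 and -0.029 in B16F10 and -0.158, 0.1 and -0.123 in 4T1). Libraries with different numbers had r from -0.192 to 0.287. With 3 libraries per group, such values cannot show whether the samples were paired. Library size scaling moved the median of all tested genes in 4T1 to -0.27 on the log2 scale. Counts of the wider lists moved by over 1.5 times in 35 cases and stayed within that in 413; with library size scaling the median of the naive and core list in 4T1 went from 0.20 to -0.10, and that of the Nodal list from 0.06 to -0.24 in 4T1 and from 0.027 to -0.002 in B16F10. A gene at 0 counts in a library may still be present at up to 0.0395 to 0.0622 CPM.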
